A study of Homo sapiens with 18 samples.

Results

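The clustered protocadherins are cell-surface cadherins encoded in 3 tandem arrays, alpha, beta and gamma, side by side on the long arm of human chromosome 5. In the alpha and gamma arrays each large variable exon has a promoter of its own and is spliced to a short set of constant exons shared by the whole array, while each beta gene is a single coding exon. A cell of the nervous system switches on a few variable promoters of its own, through choice of promoter on each allele, DNA methylation and DNA looping by CTCF and cohesin, and the proteins made bind only matching proteins on the next cell, which lets neurites of 1 neuron recognise and avoid each other. The C-type genes at the ends of the alpha and gamma arrays are known as the isoforms that most neurons share. The members here are the rows of the deposited table that map to a gene on chromosome 5 named PCDHA, PCDHB or PCDHG with an isoform number and are not pseudogenes. There are 51 of them among 57773 genes: 15 alpha, 15 beta and 21 gamma genes. PCDHB16 and PCDHGB5 are named by the same rule but have no row here and were not analysed.

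The cells were RPE1, an immortalised human line derived from retinal pigment epithelium. Per the labels, dividing cultures were given the Aurora kinase inhibitor ZM447439 at 2.5 µM for 72 h and left to recover for weeks, single cells were then grown into clones, and DNA content was read by flow cytometry. There were 3 tetraploid clones (4N-1, 4N-2, 4N-3) and 3 diploid clones (2N-1, 2N-2, 2N-3) picked from the same plates, so diploid and tetraploid clones alike had been through the inhibitor. Both clones of pair 2 had also been stained with Hoechst 33342 before subcloning. Each clone was sequenced as 3 libraries, A, B and C, described as biological replicates, which gives 18 libraries of polyadenylated RNA. A clone is a single isolate, so a difference within a pair is one between those 2 clones, and the number of replicates of ploidy is 3 clones a side.

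The level of a gene is given here in RPM, its recovered whole reads over the divisor of the library in M (mega) reads, so that 1 read is 0.0183 to 0.0277 RPM. Libraries held 37.2 to 54.4 M reads in genes. The deposited rows of the alpha and gamma clusters are nested: the row of PCDHA1 runs to the end of the alpha array and holds the reads of every gene downstream, so that the 15 alpha rows are running sums and not 15 measurements. The row of each gene was therefore replaced by a segment, its reads minus those of the next row downstream, which is the variable exon with the intron behind it. Reads that span the junction to the constant exons are not in a segment. The last row of each array holds the constant exons too, and is written PCDHAC2+constant and PCDHGC5+constant. PCDHGA8 could not be parted from PCDHGB5, nor PCDHGB7 from PCDHGA11, and each is given as 1 segment. The beta genes do not overlap each other and stand as deposited. This gives 50 units, of which 48 hold no constant exons.

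Library A of 2N-3 stood apart, in these genes and in others. Of the gamma reads, 24.0% lay upstream of the last row in this library, against 47.6% to 52.2% in the other 17. Of the alpha reads the share was 39.3%, against 49.1% to 62.4%. The last gamma row itself was at 165 RPM there, inside the 133 to 202 of the other 17 libraries, while the gamma segments summed to 52.2 against 134 to 193, and the beta genes to 24.6 against 35.9 to 51.2. Outside the clusters, the list of non-clustered protocadherins and large cadherins summed to 300 RPM in this library against 602 to 754 in the other 17. Main values of 2N-3 are therefore also given without library A, though not all of them. What set this library apart was not tested.

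**Figure D1:**
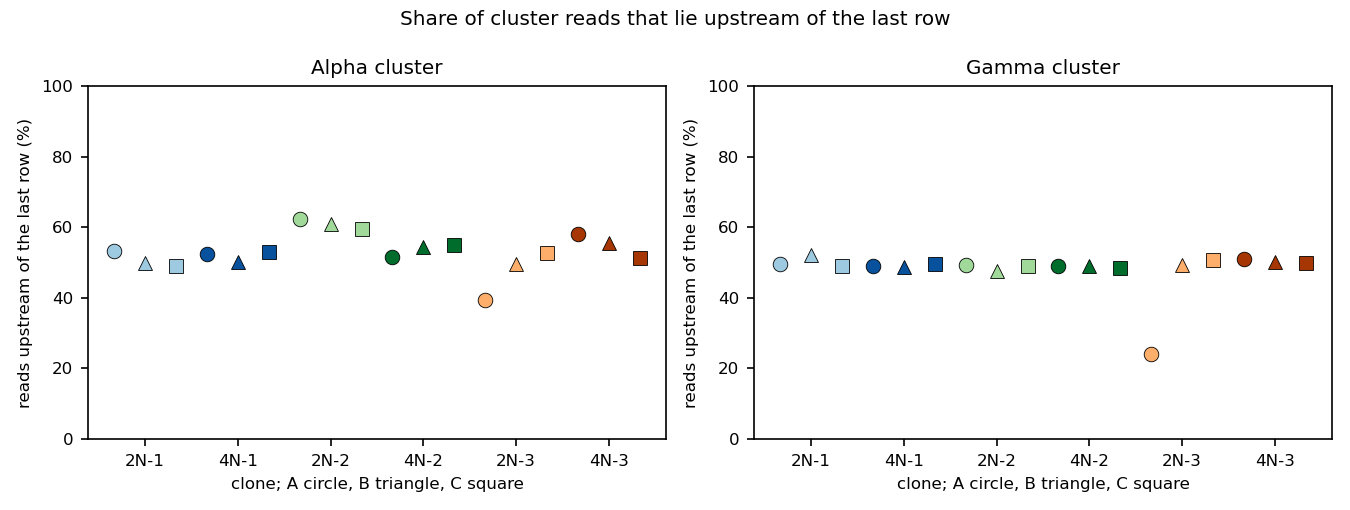
Share of all alpha reads (left) and all gamma reads (right) that lay upstream of the last row of the array, in percent, for each of 18 libraries, coloured by clone with 1 symbol for each replicate letter. Library A of 2N-3 is the lowest point in both, at 39.3% and 24.0%, and the other 17 lie between 49.1% and 62.4% for alpha and between 47.6% and 52.2% for gamma.

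The line was checked against markers of its tissue. MITF (14.8 to 23.3 RPM) and OTX2 (21.6 to 46.5), transcription factors of the pigment epithelium, were present in all libraries. BEST1, a channel of the mature epithelium, was at 1.17 to 7.48 RPM, and SERPINF1 at 0.367 to 1.19. The other 8 of 12 markers on the list, among them RPE65, RLBP1, TYR, TYRP1 and DCT, stayed below 1 RPM in every library. Of the 12, 7 were tested: RPE65 and TYRP1 rose in pair 1 (1.41 and 1.08 on the log2 scale) and TYRP1 fell in pair 2 (by 1.26), all at low levels. Of 5 epithelial and mesenchymal markers of the line none was called in any pair. Of 9 neuronal markers, 7 were high enough to be tested, and the list summed to 317 to 352 RPM in the 5 clones other than 4N-2 and 266 to 270 in 4N-2. Nearly all of this came from TUBB3 (92.7 to 225 RPM by library), SYT1 (61.1 to 149), MAP2 (18.7 to 60.4) and SNAP25 (10.2 to 55.1). The others, RBFOX3, SYP, ELAVL3, ELAVL4 and STMN2, stayed below 1 RPM in every library. SNAP25 was called as higher in pair 1 (1.06) and MAP2 as lower in pair 2 (-1.02). Whether these bear on the protocadherins was not tested. Of 7 blood and endothelial markers, 6 are in the table, and their sum reached 0.736 at most.

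The promoters of these genes carry a short stretch that is alike within each cluster, and 3 sets of letters were read off it after looking at the windows. RefSeq promoter windows (250 bases before to 50 after a start, GRCh38.p14) were matched for 45 of 51 members. GATGTCGCT was in 9 of 13 alpha members, GGTGGCGCT in 12 of 13 beta members and GCCGCTGT in 10 of 19 gamma members, and none of these letters was in a member of another cluster. Over all 35116 windows of that length, on both strands, the shares were 0.105%, 0.501% and 1.63%. A match describes letters and no binding. The windows below, each of 30 bases on the plus strand, 5′ to 3′, are those of members on which the results turn, with the searched letters in capitals.
PCDHA4, chr5:140806980-140807009: ggagccacatGATGTCGCTctttaccacaa
PCDHA6, chr5:140827898-140827927: ggagccgcatGATGTCGCTgtctaccatga
PCDHA7, chr5:140834173-140834202: atggccacatGATGTCGCTctttaccgcaa
PCDHA12, chr5:140875245-140875274: tcagtcacatGATGTCGCTctacactcaga
PCDHB2, chr5:141094545-141094574: agagacgcggGGTGGCGCTgcagccttaga
PCDHB5, chr5:141135180-141135209: taggacgcctGGTGGCGCTgcaggctaaga
PCDHB13, chr5:141213866-141213895: gaggacgcgtGGTGGCGCTgcaggataaga
PCDHB15, chr5:141245315-141245344: gacaacgcatGGTGGCGCTgcaggctaagg
PCDHGB4, chr5:141387621-141387650: gactctgggcGCCGCTGTtggccaaagtgg
PCDHGA8, chr5:141392572-141392601: gactgtaagcGCCGCTGTtcacctactgga
PCDHGA9, chr5:141402718-141402747: gactctgagcGCCGCTGTtgatcaactcta
PCDHGC3, chr5:141475884-141475913: gactctgtgtGCCGCTGTcggccaatgaag
The window of PCDHGB2 held none of the 3, nor did those of PCDHGB7, PCDHGA11, PCDHAC1 and PCDHAC2. PCDHA3, PCDHA13, PCDHB6, PCDHB11, PCDHGA12 and PCDHGC5 were not matched.

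All 6 clones expressed many isoforms in RNA of whole cultures, which does not show how many a single cell held. Taking a segment as expressed at 1 RPM or more in all 3 libraries of a clone, 26 of 48 were expressed in 2N-1, 27 in 4N-1, 23 in 2N-2, 23 in 4N-2, 19 in 2N-3 and 24 in 4N-3. In 2N-3 the count was 29 without library A. Across the 6 clones 15 segments were expressed in all, 14 in some and 19 in none, and 18, 13 and 17 without that library. The shared 15 were PCDHA6, PCDHB5, PCDHB8, PCDHB9, PCDHB10, PCDHB13, PCDHB14, PCDHGA1, PCDHGB1, PCDHGA6, PCDHGA7, PCDHGA9, PCDHGB7+PCDHGA11, PCDHGA12 and PCDHGC3. No segment was expressed in 1 or 2 clones and below 0.1 RPM in 3 or more. The cut takes no account of segment length, which ran from 2534 bases (PCDHB1) to 45399 (PCDHGA12). PCDHGA12 passed it in all clones with 5.04 to 8.55 reads per kilobase of segment, summed over the libraries of a clone. PCDHGB3, of 3820 bases, had 29.6 to 36.4 and passed in no clone with all libraries used.

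**Figure D2:**
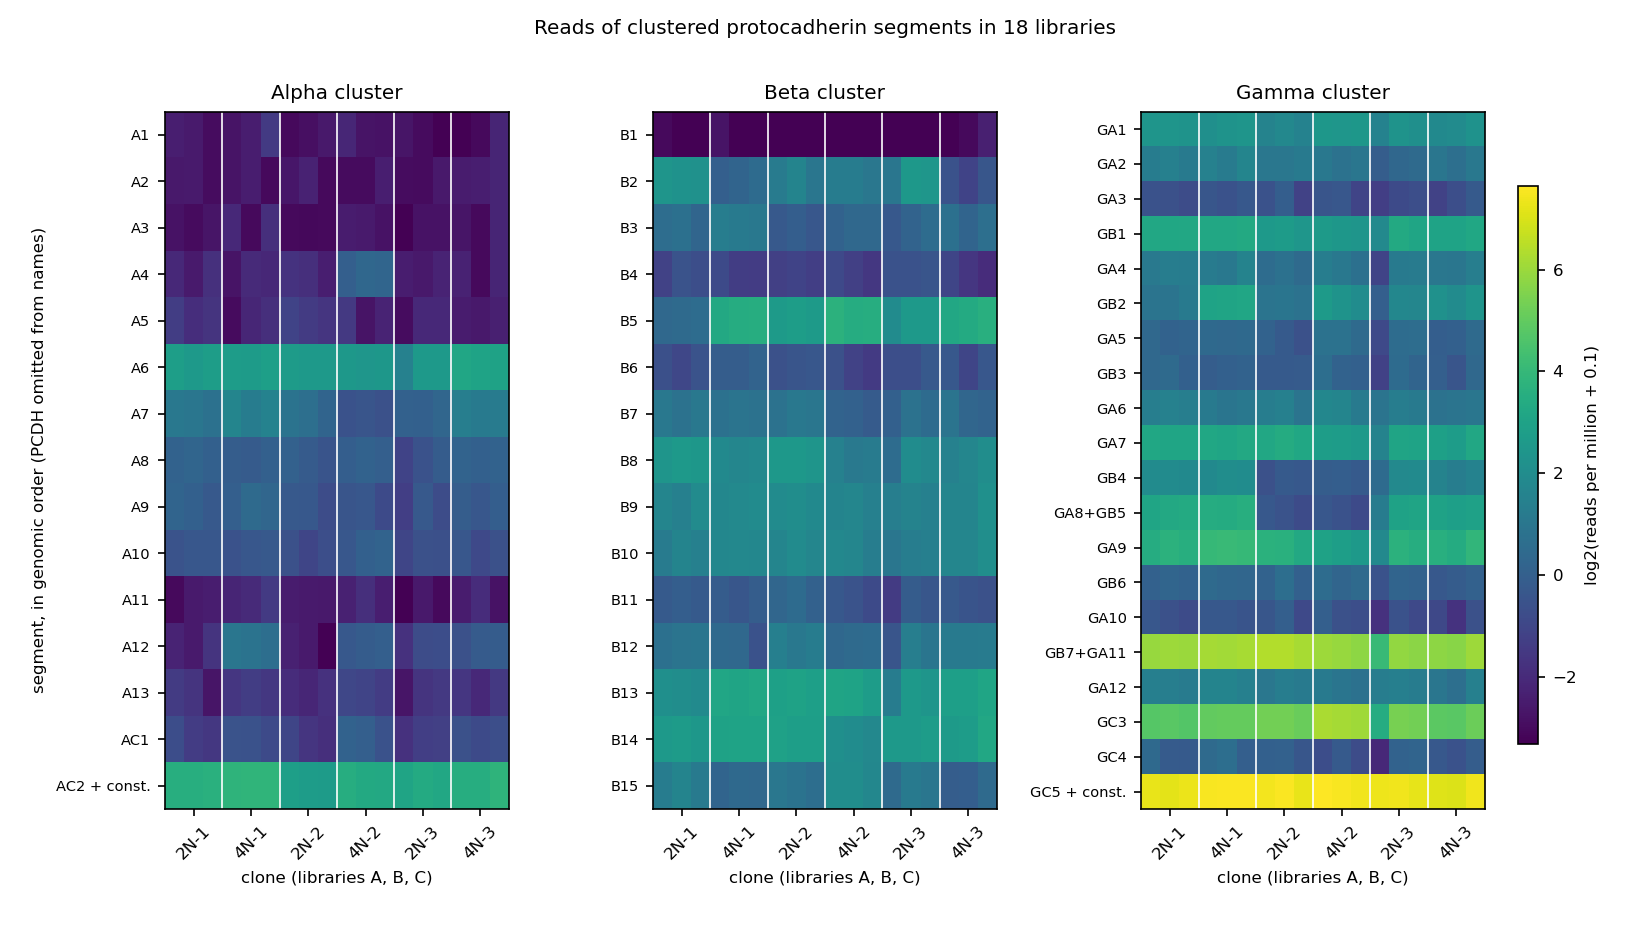
Level of each of 50 units in each of 18 libraries, as log2(RPM + 0.1), in genomic order from top to bottom, with 3 columns (A, B, C) for each clone. PCDHA6 is the bright row of the alpha cluster, PCDHB1 is dark throughout, and PCDHGB4 and PCDHGA8+PCDHGB5 are dark in both clones of pair 2.

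At the cut of 1 RPM the clusters differed in how many segments counted as expressed. Of 14 alpha segments, 1 to 3 were expressed in a clone. Of 15 beta genes, 8 to 11 were, and of 19 gamma segments 10 to 15. Without library A of 2N-3 the ranges were 9 to 11 for beta and 11 to 17 for gamma. PCDHA8, PCDHA9 and PCDHA10 lay near the cut, with clone means of 0.589 to 1.00, 0.503 to 1.11 and 0.492 to 0.882 RPM. Summed over the array, the alpha cluster had 24.0 ± 0.720 RPM in 2N-1 (SD, n = 3), 29.5 ± 0.691 in 4N-1, 17.3 ± 1.53 in 2N-2, 22.3 ± 0.941 in 4N-2, 18.0 ± 3.73 in 2N-3 and 27.1 ± 1.61 in 4N-3. Without library A the alpha sum of 2N-3 was 20.1. The gamma cluster was far above the alpha cluster, at 284 to 373 RPM by clone mean, or 295 to 373 without that library. Levels were also taken per kilobase of coding exon. All reads of a segment were counted, those of introns included, so different genes compare only roughly. On this scale the highest of the segments with a single variable exon was PCDHGC3 in every clone, at 10.5 to 27.9 RPM per kilobase. Among gamma segments of that kind PCDHGA9 came next in every clone, at 2.79 to 6.66. The joined segments PCDHGB7+PCDHGA11 and PCDHGA8+PCDHGB5 have no place in this ranking. In RPM of the whole segment PCDHGB7+PCDHGA11 was above PCDHGC3 in every clone but 4N-2. Among alpha segments PCDHA6 was highest in every clone, at 2.03 to 3.46.

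Alpha isoforms came first from PCDHA6, which took 44.0% to 57.7% of the separable alpha reads of a clone. Its clone means were 6.57 ± 0.582 RPM in 2N-1, 6.72 ± 0.448 in 4N-1, 6.04 ± 0.317 in 2N-2, 5.46 ± 0.180 in 4N-2, 4.90 ± 1.89 in 2N-3 and 8.33 ± 0.560 in 4N-3 (SD, n = 3). Without library A the mean of 2N-3 was 5.99. Among clones the level of PCDHA6 spanned less than 2-fold. At the other end PCDHA1, PCDHA2, PCDHA3 and PCDHA11 had at most 12 reads in any library and were not tested. PCDHA6 to PCDHA9 share much sequence: 30.1% to 34.6% of the 50-base words in each of their variable exons also occur in another member, so the aligner could have placed reads of 1 under another.

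The alpha isoforms that differed most between clones were PCDHA12, PCDHA4 and PCDHA7. PCDHA12 had 79, 81 and 65 reads in the libraries of 4N-1 (A, B, C in this order throughout) and 5, 3 and 8 in those of 2N-1. In pair 2 it had 5, 4 and 0 reads in 2N-2 and 28, 32 and 40 in 4N-2, and in pair 3 it had 7, 21 and 22 in 2N-3 and 21, 34 and 35 in 4N-3. The groups of pairs 1 and 2 were far apart, and those of pair 3 adjoined, with 0.501 RPM at most in 2N-3 and 0.554 at least in 4N-3. On the scale of log2(RPM + 0.1), which understates changes of low genes, PCDHA12 rose by 2.96 ± 0.30 (SE) in pair 1 and by 2.57 ± 0.30 in pair 2 (limma, adjusted p = 2.8e-06 in both). In pair 3 the difference was 0.78 ± 0.30 (limma, adjusted p = 0.15), and 0.44 ± 0.29 without library A of 2N-3.

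PCDHA4 was a feature of 1 clone. It had 35, 47 and 49 reads in 4N-2, and 1 to 10 reads in each of the 15 other libraries. The difference of pair 2 was 2.19 ± 0.28 on the log2 scale (limma, adjusted p = 6.7e-06), and in pairs 1 and 3 it was -0.16 ± 0.28 and -0.09 ± 0.28 (adjusted p = 0.76 and 0.86). Only 6.87% of the 50-base words of its exon occur in another member.

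PCDHA7 moved in opposite directions in 2 pairs. Its levels were 1.73, 1.52 and 1.06 RPM in 2N-2 and 0.583, 0.652 and 0.561 in 4N-2, so that it fell by 1.11 ± 0.17 on the log2 scale (limma, adjusted p = 4.4e-05). In pair 3 the levels were 0.969, 0.937 and 1.14 in 2N-3 and 2.48, 2.18 and 2.23 in 4N-3, a rise of 1.11 ± 0.17 (adjusted p = 0.00036), and 1.08 ± 0.18 without library A. The libraries of the 2 clones did not overlap in either pair. Without library A of 2N-2 the fall in pair 2 was -0.97, short of 2-fold.

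Of the C-type alpha genes, PCDHAC1 was low in all clones, with clone means of 0.259 to 0.825 RPM. It had 19, 12 and 8 reads in 2N-2 and 39, 36 and 26 in 4N-2, a rise of 1.38 ± 0.26 (limma, adjusted p = 0.00033). Its segment is 39511 bases long, mostly outside the coding exon of 2454 bases, so where in it these reads lie is not known. PCDHAC2 has no segment of its own. The last alpha row, PCDHAC2 with the constant exons of the cluster, was lowest in 2N-2 at 6.73 ± 0.341 RPM and rose to 10.3 ± 0.816 in 4N-2, by 0.61 ± 0.10 on the log2 scale (adjusted p = 0.00014), which is under 2-fold. In pair 3 it rose by 0.38 ± 0.10 (adjusted p = 0.033), but did not pass with library A of 2N-3 left out (0.31 ± 0.10, adjusted p = 0.070), and in pair 1 the difference was 0.26 ± 0.10 (adjusted p = 0.094). Because the alpha rows are nested sums with these reads in common, all 15 deposited alpha rows passed the test as higher in pairs 2 and 3, which is 1 observation and not 15. With library A of 2N-3 left out, 12 of the 15 passed in pair 3.

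The beta genes, each a single exon without constant exons, were read without subtraction. PCDHB5, with PCDHA12, had the largest difference of all units in pair 1. Its levels were 1.21, 1.28 and 1.35 RPM in 2N-1 and 9.82, 10.8 and 11.4 in 4N-1. They were 6.28, 6.81 and 6.27 in 2N-2 against 13.1, 10.9 and 11.1 in 4N-2, and 3.85, 5.86 and 5.79 in 2N-3 against 9.51, 10.3 and 12.1 in 4N-3. The tetraploid libraries lay above the diploid ones in all 3 pairs, and 2N-1 stood apart from the other 2 diploid clones. On the log2 scale PCDHB5 rose by 2.97 ± 0.14 in pair 1 (limma, adjusted p = 2.3e-10), 0.85 ± 0.14 in pair 2 (adjusted p = 0.00014, under 2-fold) and 1.04 ± 0.14 in pair 3 (adjusted p = 0.00013). The rise in pair 3 was under 2-fold both when library A of 2N-3 was left out (0.85 ± 0.11, adjusted p = 6.0e-05) and when library C of 4N-3 was (0.95), and with the libraries of pair 3 alone the adjusted p was 0.073.

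PCDHB2 fell in 2 pairs and not in the third. It had 5.11, 4.77 and 4.52 RPM in 2N-1 and 0.901, 1.05 and 1.32 in 4N-1, and fell by 2.06 ± 0.31 (limma, adjusted p = 0.00015). It had 1.88, 5.72 and 5.38 in 2N-3 and 0.581, 0.367 and 0.658 in 4N-3, and fell by 2.68 ± 0.31 (adjusted p = 1.5e-05), or by 3.18 ± 0.21 without library A. In pair 2 the levels were 2.26, 2.96 and 1.85 against 2.31, 2.31 and 1.93, and the difference was -0.09 ± 0.31 (adjusted p = 0.85).

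PCDHB15 changed in opposite directions in pairs 1 and 2. Its levels were 2.31, 2.96 and 2.17 RPM in 2N-1 and 1.04, 1.26 and 1.20 in 4N-1, a fall of 1.01 ± 0.20 (limma, adjusted p = 0.0014). In pair 2 they were 1.95, 1.72 and 1.48 in 2N-2 and 4.03, 4.04 and 3.25 in 4N-2, a rise of 1.09 ± 0.20 (adjusted p = 0.00022). Both are close to 2-fold: leaving out B of 2N-1 gave a fall of -0.88, leaving out A of 4N-1 gave -0.94, and leaving out C of 2N-2 gave a rise of 0.997. In pair 3 it fell by 0.78 ± 0.20 (adjusted p = 0.022), or by 0.97 ± 0.19 without library A of 2N-3, under 2-fold in both.

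PCDHB8 and PCDHB13 are the beta pair with the most shared sequence, with 46.4% and 45.3% of their 50-base words found in another member. PCDHB8 fell in pair 2, from 5.70, 5.59 and 5.17 RPM to 2.69, 2.03 and 2.24, by 1.21 ± 0.26 (limma, adjusted p = 0.0010). PCDHB13 rose in pair 1, from 4.27, 4.02 and 3.68 to 8.90, 8.25 and 9.41, by 1.13 ± 0.23 (adjusted p = 0.0020). In each case the other gene did not pass the test: PCDHB13 in pair 2 was at 0.01 ± 0.23 (limma, adjusted p = 0.97) and PCDHB8 in pair 1 at -0.69 ± 0.26 (adjusted p = 0.075). The libraries of PCDHB8 in pair 1 did not overlap, however, at 5.11, 5.86 and 5.49 RPM in 2N-1 and 3.56, 3.17 and 3.39 in 4N-1. There PCDHB8 was lower where PCDHB13 was higher. Whether reads of 1 of them were placed under the other was not tested. PCDHB14, also above 5 RPM in most clones, had 7.55, 7.07 and 6.89 RPM in 2N-2 and 4.28, 3.94 and 3.34 in 4N-2, and fell by 0.88 ± 0.14 (adjusted p = 6.0e-05), less than 2-fold. The steadiest expressed beta genes were PCDHB9 and PCDHB10, with clone means of 2.68 to 3.80 and 2.28 to 3.54 RPM, which were picked after their values were seen.

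Which beta gene led per kilobase changed with the clone. It was PCDHB14 in 2N-1 and 2N-3 (2.49 and 2.58 RPM per kilobase), PCDHB13 in 2N-2 (3.15) and PCDHB5 in all 3 tetraploid clones (4.48 in 4N-1, 4.91 in 4N-2 and 4.45 in 4N-3). PCDHB5 took 3.50% of the beta reads of 2N-1 and 22.7% of those of 4N-1, 14.4% and 27.9% in pair 2, and 14.7% and 24.1% in pair 3. PCDHB1, at the start of the array, had 0 reads in all libraries of 2N-2, 4N-2 and 2N-3, which allows up to 0.0200, 0.0242 and 0.0245 RPM (3 reads over the clone, for counting error only), and at most 4 reads in any library. Other transcripts are annotated across the arrays, antisense ones among them, and with strand use in counting unknown their reads cannot be told apart.

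**Figure D3:**
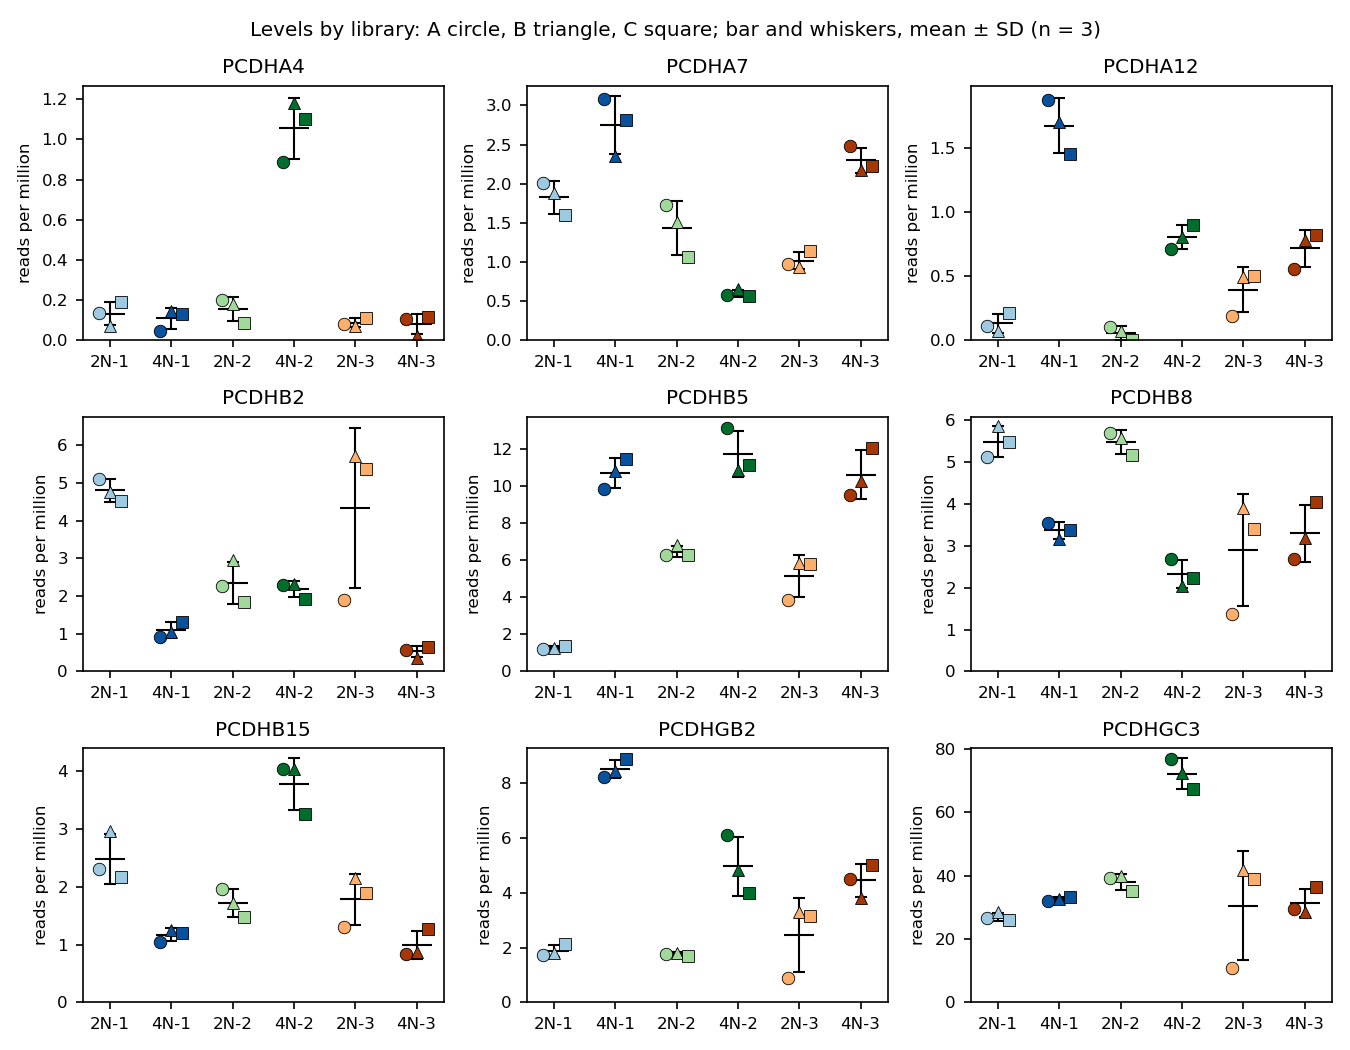
RPM of 9 members in each library, by clone, with circles, triangles and squares for libraries A, B and C and a bar with whiskers for the mean and SD of 3 libraries. PCDHA4 is high in 4N-2 only, PCDHB2 is low in 4N-1 and 4N-3, and the circle of 2N-3 lies below its other 2 points for PCDHB2, PCDHB5, PCDHB8, PCDHGB2 and PCDHGC3.

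The gamma cluster was dominated by 2 segments. PCDHGB7+PCDHGA11 took 33.9% to 48.7% of the separable gamma reads by clone, with clone means of 62.8 ± 1.89 RPM in 2N-1, 71.3 ± 2.27 in 4N-1, 79.5 ± 5.75 in 2N-2, 60.5 ± 6.02 in 4N-2, 42.5 ± 22.3 in 2N-3 and 57.7 ± 7.33 in 4N-3 (SD, n = 3). Without library A the mean of 2N-3 was 55.3. No pair passed the test for it with all libraries used, and the spread in that test includes library A. The libraries of pair 2 did not overlap, at 82.4, 83.1 and 72.8 RPM in 2N-2 and 66.1, 61.2 and 54.2 in 4N-2. Without library A of 2N-3 the span among clones was 0.52 on the log2 scale (moderated F test in limma, adjusted p = 0.00030). That of the pair differences was 0.58 (adjusted p = 0.0013), and both are under 2-fold.

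The other was the C-type gene PCDHGC3. It had 26.7, 28.5 and 26.1 RPM in 2N-1, 32.0, 32.8 and 33.2 in 4N-1, 39.2, 39.9 and 35.3 in 2N-2, and 76.9, 72.5 and 67.3 in 4N-2. In pair 3 it had 10.8, 41.8 and 39.0 in 2N-3 and 29.4, 28.4 and 36.4 in 4N-3. The 3 libraries of 4N-2 stood above all others, and in that clone PCDHGC3 took 40.7% of the separable gamma reads, the largest share, against 17.4% to 23.9% in the other 5 clones. The rise in pair 2 was 0.92 ± 0.32 (limma, adjusted p = 0.028), under 2-fold. In pair 3 PCDHGC3 differed by -0.37 ± 0.09 without library A of 2N-3 (limma, adjusted p = 0.016), also under 2-fold. No 50-base word of its exon occurs in another member. PCDHGC4 stayed near 1 RPM or below, with clone means of 0.584 to 1.21, and passed no test. PCDHGC5 has no segment apart from the constant exons, and that last row had clone means of 147 to 190.

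PCDHGB2 was higher in the tetraploid clone of each pair. It had 1.74, 1.78 and 2.11 RPM in 2N-1 and 8.21, 8.44 and 8.87 in 4N-1, and 1.77, 1.81 and 1.68 in 2N-2 and 6.11, 4.82 and 3.97 in 4N-2. In pair 3 it had 0.886, 3.30 and 3.17 in 2N-3 and 4.51, 3.81 and 5.03 in 4N-3. No tetraploid library overlapped its diploid partner. It rose by 2.13 ± 0.32 in pair 1 (limma, adjusted p = 0.00014) and by 1.43 ± 0.32 in pair 2 (adjusted p = 0.0016). In pair 3 the difference was 1.03 ± 0.32 (adjusted p = 0.066), and 0.44 ± 0.15 without library A of 2N-3 (adjusted p = 0.11).

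A run of the gamma array was low in both clones of pair 2. PCDHGA8+PCDHGB5 had 35, 33 and 21 reads in 2N-2 and 27, 23 and 20 in 4N-2, against 374, 401 and 384 in 2N-1, 463, 510 and 515 in 4N-1, 85, 339 and 370 in 2N-3 and 301, 312 and 323 in 4N-3. PCDHGB4, the neighbour before it, had 28, 42 and 32 reads in 2N-2 and 33, 35 and 34 in 4N-2, against 104 to 195 in the other 4 clones, except 48 in library A of 2N-3. Together these took 0.777% and 0.784% of the separable gamma reads in 2N-2 and 4N-2, and 6.96% to 8.53% in the other clones. In RPM the clone means of PCDHGA8+PCDHGB5 were 0.590 ± 0.121 and 0.570 ± 0.118 in pair 2 and 6.24 to 11.1 elsewhere. The segments on either side did not share this: PCDHGA7 was at 9.71 ± 0.716 in 2N-2 and 6.47 ± 0.452 in 4N-2, and PCDHGA9 at 11.5 ± 1.62 and 6.92 ± 0.980. The 2 clones of pair 2 did not differ from each other in either low segment beyond the error of the test (0.26 ± 0.26, adjusted p = 0.46 for PCDHGB4, and -0.04 ± 0.32, adjusted p = 0.93 for PCDHGA8+PCDHGB5; limma). Away from this run, PCDHGA1 had clone means of 3.00 to 5.39 RPM and rose in pair 2 by 0.83 ± 0.16 (adjusted p = 0.00059), under 2-fold, and PCDHGB1 had 5.61 to 9.67 and passed no test in a pair. PCDHGB4 falls outside the rule for naming genes and was picked after its values were seen.

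**Figure D4:**
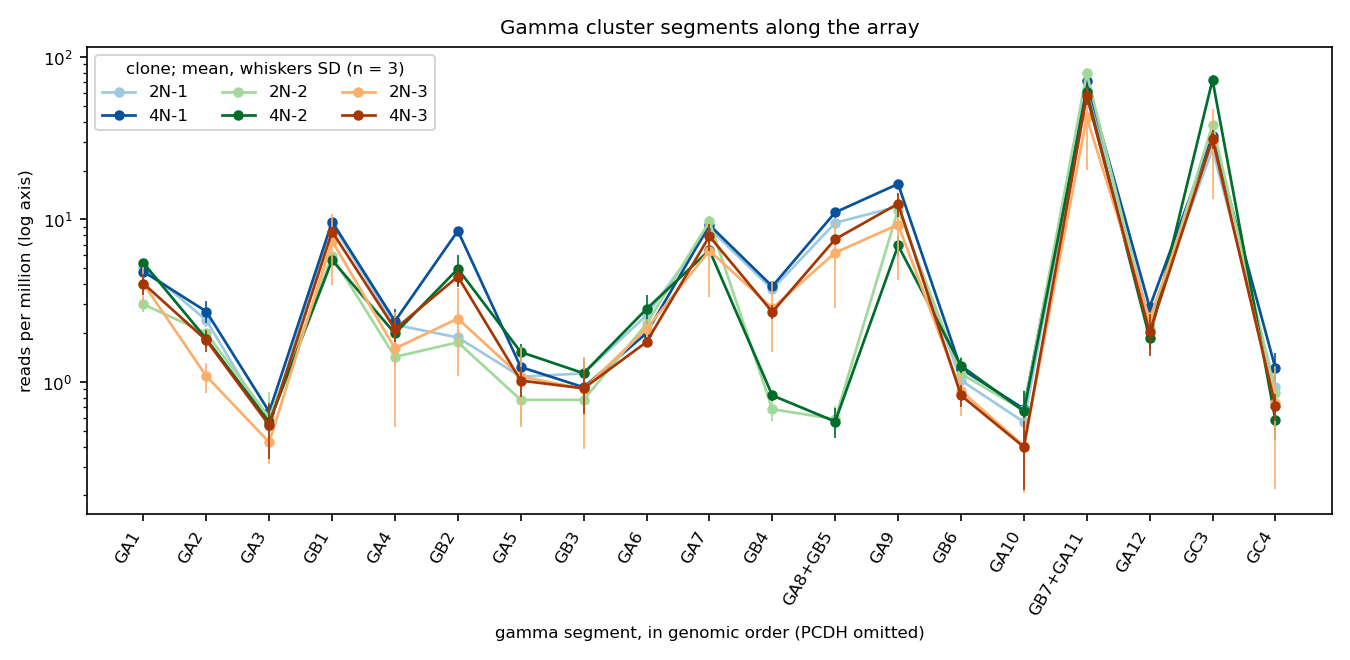
Clone means of the 19 gamma segments without constant exons, in genomic order, in RPM on a log axis, with SD whiskers (n = 3). Lines part at PCDHGB2, where 4N-1 is highest, at PCDHGB4 and PCDHGA8+PCDHGB5, where both clones of pair 2 drop to between 0.570 and 0.826, and at PCDHGC3, where 4N-2 is highest.

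Among the 6 clones, 22 of 45 segments tested differed (moderated F test in limma, adjusted p below 0.05 and 2-fold or more between the highest and lowest clone), or 48.9%, where 22.9% of all genes tested did. By cluster these were 7 of 11 alpha segments, 9 of 14 beta genes and 6 of 20 gamma segments. The spans were largest for PCDHGA8+PCDHGB5 at 4.07 on the log2 scale (adjusted p = 4.7e-09), PCDHA12 at 3.54 (adjusted p = 2.7e-07), PCDHB5 at 3.09 (adjusted p = 8.9e-11) and PCDHB2 at 2.98 (adjusted p = 2.8e-06). The median span was 1.05 over the 45 and 0.64 over all genes. On the nested rows as deposited, 18 of 50 were called (22.9% of all genes), 9 of 15 alpha rows and no gamma row among them.

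Within pairs, few isoforms passed both thresholds. In pair 1, 4 segments rose and 2 fell of 45, or 13.3%, where 4.22% of all genes were called (1.97% higher and 2.25% lower). Pair 2 had 5 segments higher and 2 lower, or 15.6%, against 12.9% of all genes (6.11% and 6.77%). Pair 3 had 2 higher and 1 lower, or 6.67%, against 2.34% (0.998% and 1.34%). The share in pair 2 was near that of all genes. The medians over the 45 were 0.18, -0.01 and 0.26, and those of all genes 0.02, -0.02 and 0.01. On the deposited rows the counts were 4 of 50 in pair 1 (2 higher and 2 lower), where 4.21% of all genes were called (1.96% and 2.25%), 2 in pair 2 (1 and 1), against 12.9% (6.1% and 6.76%), and 2 in pair 3 (1 and 1), against 2.34% (0.993% and 1.35%). All were beta genes. The count of segments in pair 3 rests on single libraries: leaving out B of 2N-3 gave 7, C of 2N-3 gave 6 and C of 4N-3 gave 2. The shares of all genes without those libraries are not given. Leaving out A of 2N-3 changed which segments were called. PCDHA7 and PCDHB2 kept the call, PCDHB5 lost it, and PCDHB4 gained one as lower (-1.02 ± 0.28, limma, adjusted p = 0.030).

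**Figure D5:**
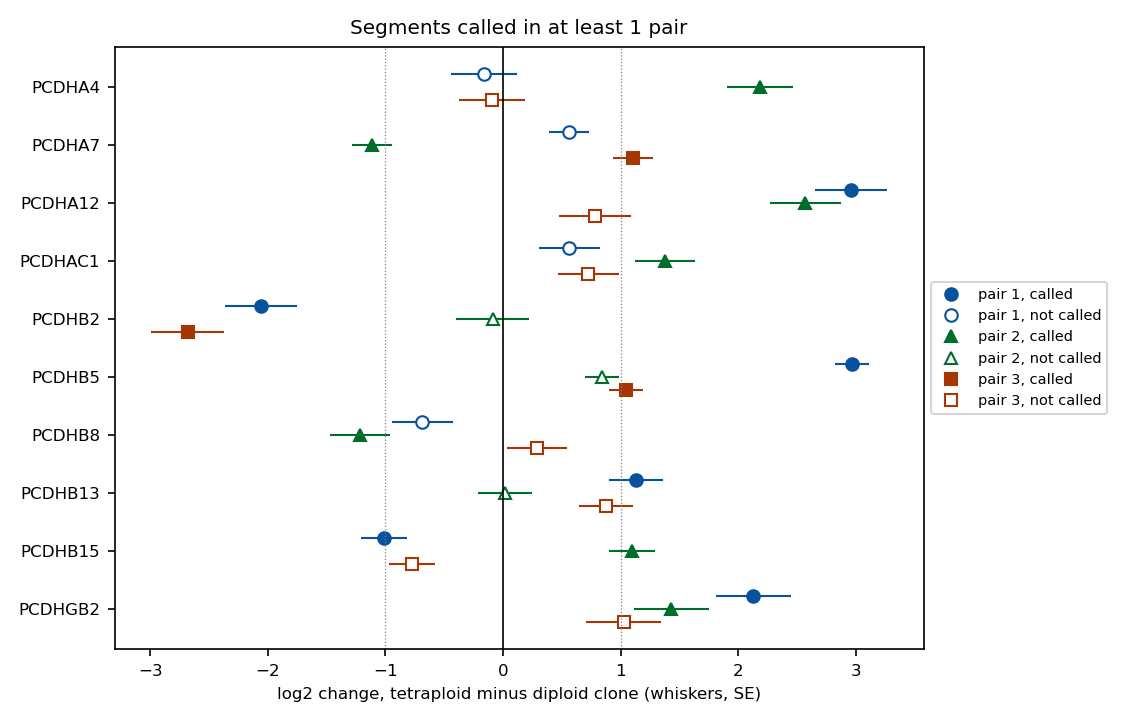
Log2 change from the diploid to the tetraploid clone, with SE whiskers, for the 10 segments called in at least 1 pair, with filled symbols for calls and open symbols for the rest. PCDHA12, PCDHAC1, PCDHB5, PCDHB13 and PCDHGB2 lie above 0 in all 3 pairs (PCDHB13 at 0.01 in pair 2), while PCDHA7 and PCDHB15 have calls on both sides of 0.

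The 3 pair differences were unequal for 12 of 45 segments (moderated F test in limma, adjusted p below 0.05 and a span of 2-fold or more), or 26.7%, where 21.7% of all genes were. Of these, 8 are beta genes (8 of 14 tested). Leading spans were 2.59 for PCDHB2 (adjusted p = 0.00039), 2.34 for PCDHA4 (adjusted p = 0.00017), 2.22 for PCDHA7 (adjusted p = 3.8e-06), 2.18 for PCDHA12 (adjusted p = 0.0013), 2.12 for PCDHB5 (adjusted p = 5.3e-07) and 2.11 for PCDHB15 (adjusted p = 1.9e-05). For PCDHGB2 the span was 1.10 (adjusted p = 0.13), and 1.69 without library A of 2N-3 (adjusted p = 1.1e-05).

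With clones as the replicates of ploidy, 3 against 3 with the pair as a block, limma called 0 of 45 segments and 0% of all genes, and limma-voom also called none. At an unadjusted p below 0.05 there were 8 segments of 45 with limma and 8 with limma-voom, 7 of the 8 with limma higher in tetraploid clones, where 4.60% of all genes reached that level. Among them PCDHGB2 was at 1.53 ± 0.27 on the log2 scale (limma, adjusted p = 0.56), PCDHA12 at 2.10 ± 0.46 (adjusted p = 0.75) and PCDHB5 at 1.62 ± 0.44 (adjusted p = 0.96), and PCDHB2 was at -1.61 ± 0.52 (adjusted p = 0.99). Without library A of 2N-3 these were 1.33 ± 0.35, 1.99 ± 0.54, 1.55 ± 0.48 and -1.77 ± 0.61 (limma, adjusted p = 0.95 for each).

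Genes that act on the arrays or with their proteins were taken from lists. Of 24 regulators of the clusters and of DNA looping, all tested, none was called in pair 1 or 3 and 1 in pair 2, TET2, an enzyme that oxidises methylated cytosine, which fell by 1.35 ± 0.21 (limma, adjusted p = 6.1e-05). Of all genes, 4.21%, 12.9% and 2.34% were called in pairs 1, 2 and 3. CTCF, which binds these promoters, was at 62.2 ± 2.62 RPM in 2N-1 and 47.5 ± 2.69 in 4N-1, a fall of 0.39 ± 0.09 (adjusted p = 0.0061) that is under 2-fold, and it passed no test in pairs 2 and 3. At any fold 7 of the 24 fell and none rose in pair 1, CTCF and the cohesin subunits RAD21 (-0.61 ± 0.11, adjusted p = 0.00098) and SMC1A (-0.82 ± 0.19, adjusted p = 0.0055) among them, with the maintenance methyltransferase DNMT1 (-0.85 ± 0.15, adjusted p = 0.00068). Pair 2 had 8 that passed at any fold (2 higher, 6 lower) and pair 3 had 2, both lower. The share of all genes that passed at any fold was not computed, so these counts have nothing to be compared with. RAD21, SMC1A and DNMT1 were picked after their values were seen. The repressor SMCHD1 and the methyltransferase DNMT3B passed no test, with adjusted p from 0.19 to 0.69 over the 3 pairs. Of 20 tested partners of the proteins, CYFIP2, of the WAVE complex that binds protocadherin tails, rose by 2.70 ± 0.10 in pair 2 (adjusted p = 1.4e-12) and by 1.00 ± 0.10 in pair 3 (adjusted p = 2.4e-06, and 0.89 ± 0.08, under 2-fold, with library A of 2N-3 left out), and the kinase PTK2B rose by 1.18 ± 0.14 in pair 2 (adjusted p = 2.7e-06). No other partner was called in any pair. This makes 2 calls of 20 in pair 2 and 1 in pair 3, where 12.9% and 2.34% of all genes were called.

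Protocadherins and related large cadherins outside the clusters also differed. Of 16 tested, pair 1 had 1 call (lower), pair 2 had 5 (2 higher and 3 lower) and pair 3 had 1 (higher), where 4.21%, 12.9% and 2.34% of all genes were called. PCDH7 fell by 2.37 ± 0.18 in pair 2 (limma, adjusted p = 9.4e-09) and rose by 1.28 ± 0.18 in pair 3 (adjusted p = 0.00011), or by 1.07 ± 0.15 with library A of 2N-3 left out. DCHS2 fell by 2.05 ± 0.31 in pair 1 (adjusted p = 0.00017) and by 2.12 ± 0.31 in pair 2 (adjusted p = 3.2e-05), and in pair 2 CELSR3 rose by 2.60 ± 0.17 (adjusted p = 2.4e-09), PCDH12 by 1.83 ± 0.22 (adjusted p = 4.1e-06, at 0.321 RPM or less by clone mean) and DCHS1 fell by 1.48 ± 0.27 (adjusted p = 0.00023).

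Of 23 tested genes around and between the arrays, 1 was called in a pair, the growth factor gene HBEGF, which rose by 1.76 ± 0.13 in pair 2 (limma, adjusted p = 1.1e-08), where 12.9% of all genes were called. Counting any fold, 6 passed in pair 1 (5 higher, 1 lower), 11 in pair 2 (9 higher, 2 lower) and none in pair 3. The share of all genes at any fold was not computed here either. TAF7, a subunit of the general transcription machinery that lies between the beta and gamma arrays, rose by 0.56 ± 0.07 in pair 2 (adjusted p = 3.6e-06), under 2-fold, and passed no test in pairs 1 and 3. SLC25A2, a mitochondrial carrier gene beside it, had at most 0.0705 RPM and was not tested.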

How the data were processed

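RNA-seq of 18 libraries of 6 RPE1 clones was analysed. Per the submitters' processing notes, CASAVA 1.8.2, TopHat2, edgeR and genome build hg19 are named. Per the labels, libraries were stranded and polyA selected, and strand use in counting is not given in the sources used here. The deposited values are RPKM for 57773 genes, which the authors computed over the genomic span (within 1% for 87.8% of 20198 genes above 200 reads). Whole reads were recovered from the steps of the values (100% whole within 0.01 reads), and RPM use the divisor so implied. Names and exon lengths came from GENCODE (GRCh38).

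Genes reaching 10 reads in at least 3 libraries were fitted on log2(RPM + 0.1) with limma 3.58.1 in R 4.3.3, 1 mean per clone, with Benjamini-Hochberg adjustment over all genes. Called means adjusted p below 0.05 and 2-fold or more. Tests are two-sided. Replicate letters met the criterion for pairing in pair 2 only, from the data and not from the labels (correlation of deviations 0.13 to 0.46). The script was tested on simulated data. Segments were chosen after the nesting of the rows was seen. Members and lists were chosen with earlier results of these data known. Members named have 5 or more RPM in a clone, a call in a pair, or are C-type genes, applied to segments. From each list, up to 3 called genes per direction and pair are named, plus CTCF, SMCHD1, DNMT3B, TAF7 and SLC25A2. Marker lists served as checks only.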

Additional observations from a re-analysis of the deposited data

Results flagged for a closer look

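For 12 segments the pair differences were unequal in a test of the difference itself (moderated F test in limma, adjusted over all genes). These are 26.7% of the 45 tested, where 21.7% of all genes were called. The gap between the largest and smallest of the 3 pair differences, on the log2 scale, was 2.34 for PCDHA4, 2.22 for PCDHA7, 2.18 for PCDHA12, 2.59 for PCDHB2, 2.12 for PCDHB5, 1.32 for PCDHB6, 1.5 for PCDHB8, 1.39 for PCDHB12, 1.12 for PCDHB13, 1.32 for PCDHB14, 2.11 for PCDHB15 and 1.34 for PCDHGA9. Without library A of 2N-3 there were 15, with PCDHGA1, PCDHGB2, PCDHGA5 and PCDHGC3 added and PCDHB12 not called. The share of all genes without that library is not given.

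Pseudogene rows inside the arrays, which are no members, held reads. In the library with most reads PCDHB18P had 72, PCDHB19P 26, PCDHGB8P 20, PCDHB17P 16 and PCDHA14 8. By clone mean PCDHB18P was at 1.56 ± 0.161 RPM in 2N-1 (SD, n = 3) and at 0.758 ± 0.165 in 4N-2.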

How the results depend on the processing

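The shares of all genes called under the settings below are not given, so the counts have nothing to be compared with. With a pseudocount of 0.5 in place of 0.1 the segments called were 4 in pair 2 and 1 in pair 3, and the deposited rows 1 in each. On the RPKM scale 28 rows were tested, and 2, 0 and 1 were called in pairs 1, 2 and 3, 3 among clones and 5 between pairs. With a mean of 50 reads or more, 28 segments were tested and 4 called in pair 2, and with the libraries of pair 3 alone 1 row was called there. Leaving out 1 library at a time, pair 1 had 5 to 6 segments (3 to 4 rows), pair 2 had 6 to 8 (1 to 2), pair 3 had 2 to 7 (1 to 4), among clones 17 to 26 (15 to 20) and between pairs 10 to 18 (7 to 10), and none for ploidy. Segments expressed in 2N-2 at 2 RPM were 13, and those of 2N-3 were 19 to 29 over the libraries left out. The 16 calls of single segments were recomputed 419 times: 405 kept the call, 14 lost it and none reversed. Those lost were PCDHA7, PCDHAC1, PCDHB5 in pair 3 and PCDHB15, at values within 0.75 to 1.04 in size, 6 of them under the pseudocount of 0.5. For PCDHA12 the rise was 1.78 in pair 1 and 1.23 in pair 2 with that pseudocount, and 3.66 and 4.08 with limma-voom.

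Replicate letters are shared by all clones. The correlation of deviations of same-lettered libraries was above 0.1 for every letter in pair 2 (0.13 to 0.46) but not in pair 1 (0.04 to 0.17) or pair 3 (-0.26 to 0.08). With the replicate block within pair 2, added after seeing the data, 7 segments and 2 rows were called there, and each of the 7 calls was kept. With the replicate block over all clones the segments called were 6, 7 and 3 in the 3 pairs, 21 among clones, 12 between pairs and 0 for ploidy.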
